A study of Mus musculus with 10 samples.

Results

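The genes described here are 50 members of the mouse Wnt pathway: 19 Wnt ligands, 10 Frizzled receptors, the LRP co-receptors Lrp5 and Lrp6, 6 secreted antagonists, 5 genes of beta-catenin and its destruction complex, 4 TCF/LEF factors, and 4 genes of the R-spondin branch. They were chosen by gene symbol and by their place in the pathway. Binding of 2 kinds of transcription factor near them was read from 6 lists of enriched regions made by chromatin immunoprecipitation and sequencing (ChIP-seq). Of the 50 genes, 40 had at least 1 region assigned to them by the authors, and together they held 310 of the 78263 regions in the 6 lists.

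All cells were of the CGR8 line, a mouse embryonic stem cell (ESC) line used at passages 18 to 25. ESCs were kept without feeder cells in serum with LIF, and were left untreated or given 10 µM SB431542 (SB), which blocks the type I receptor kinases for Nodal, activin and TGF-beta, for 24 hours (ESC+SB). Endoderm was obtained in serum-free medium with 100 ng/ml Activin A from day 2 and taken at day 4, and in the Endoderm+SB cells 10 µM SB was present from day 2 for 48 hours. The labels can be read as Activin A and SB together or as SB in place of Activin A, so the Endoderm+SB cells are described here only as cells of this protocol with SB. Below, the words endoderm with SB name this protocol and not a checked cell type. One antibody recognised SMAD2/3, the factors that carry activin and Nodal signals to DNA, and was used in untreated ESCs and in endoderm. The other recognised HEB, the basic helix-loop-helix E protein encoded by Tcf12, and was used in all 4 kinds of cell. Each of the 6 ChIP groups held 1 library, and the SMAD2/3 and HEB libraries of the same cells were compared with the same input. No difference below therefore has a replicate check, no test across samples was possible, and confidence intervals cover counting error only. Expression was not measured, so the identity of the endoderm could not be checked against marker genes, and a region shows where a factor was enriched, not whether the gene was active.

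Wnt proteins are secreted ligands that bind Frizzled receptors together with LRP co-receptors. In the canonical pathway this halts the destruction complex built on Axin and APC, in which GSK3 marks beta-catenin for degradation, so that beta-catenin accumulates and joins TCF/LEF factors on DNA. R-spondins, acting through LGR receptors, keep Frizzled receptors on the cell surface, and antagonists such as the SFRPs bind Wnt proteins outside the cell. The pathway is known for its roles in ESC self-renewal, where Tcf7l1 acts mainly as a repressor, and in the primitive streak, where Wnt3 is needed for mesoderm and endoderm to form.

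SMAD2/3 regions at 5′ ends of Wnt pathway genes are illustrated by 4 promoters. RefSeq entries (GRCm38.p6) were found for 34 of the 50 genes. The promoters shown belong to the genes with the highest SMAD2/3 tag enrichment at the 5′ end, after leaving out Lrp6 and Fzd6, which have no entry in the table used. Tag enrichment is the authors' ratio of ChIP tags to input tags in a region. It reached 36.96 at Lgr4, 13.47 at Fzd10, 12.88 at Fzd5 and 11.44 at Fzd9, all in endoderm. Each sequence holds the 250 bases before the start of the gene, 5′ to 3′ in the direction of transcription, at chr2:109917397-109917646 (plus strand) for Lgr4, chr5:128600856-128601105 (plus) for Fzd10, chr1:64737751-64738000 (minus) for Fzd5 and chr5:135251048-135251297 (minus) for Fzd9. Capitals mark the letters CANNTG, the general E-box pattern of basic helix-loop-helix factors, and CAGAC, a SMAD box, searched on both strands. A match to CANNTG is not by itself a HEB motif.
Lgr4: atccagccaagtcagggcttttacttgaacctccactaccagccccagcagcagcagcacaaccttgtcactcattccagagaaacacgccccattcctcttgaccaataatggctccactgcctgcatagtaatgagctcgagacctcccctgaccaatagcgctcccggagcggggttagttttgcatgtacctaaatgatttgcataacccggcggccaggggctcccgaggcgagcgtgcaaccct
Fzd10: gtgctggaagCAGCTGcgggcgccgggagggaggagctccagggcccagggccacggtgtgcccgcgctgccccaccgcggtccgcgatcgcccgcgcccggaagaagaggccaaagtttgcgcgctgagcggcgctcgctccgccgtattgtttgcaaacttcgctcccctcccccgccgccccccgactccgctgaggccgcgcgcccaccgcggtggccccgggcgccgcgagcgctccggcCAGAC
Fzd5: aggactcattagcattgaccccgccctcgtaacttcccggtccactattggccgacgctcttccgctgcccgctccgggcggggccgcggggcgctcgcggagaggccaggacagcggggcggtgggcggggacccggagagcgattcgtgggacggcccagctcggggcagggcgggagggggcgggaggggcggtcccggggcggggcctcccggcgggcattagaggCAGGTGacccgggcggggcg
Fzd9: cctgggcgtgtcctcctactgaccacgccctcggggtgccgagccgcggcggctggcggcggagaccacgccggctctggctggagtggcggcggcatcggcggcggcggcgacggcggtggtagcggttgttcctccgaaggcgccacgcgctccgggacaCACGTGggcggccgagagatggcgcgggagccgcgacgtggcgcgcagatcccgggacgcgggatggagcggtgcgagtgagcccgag
The Lgr4 sequence held neither motif, although its 5′ end carried the highest SMAD2/3 region of all 50 genes in both kinds of cell. Fzd10 held 1 E-box of the form CAGCTG and 1 SMAD box, Fzd5 held the E-box CAGGTG, and Fzd9 held the E-box CACGTG. The general pattern CANNTG occurred in 62.7% of all 17492 mouse promoters of this length and in 18 of the 34 Wnt pathway promoters. CAGAC occurred in 40.9% of all promoters and in 14 of the 34. Of the narrower E-boxes that this pattern includes, CAGCTG occurred in 11.6% of all promoters and in 3 of the 34. The form CAGGTG occurred in 16.5% of all promoters and in 9 of the 34. Of the 18 promoters with a region within 1 kb of the 5′ end in any list, 9 held CANNTG and 7 held CAGAC. Of the 16 promoters without such a region, the numbers were also 9 and 7. The form CAGGTG was held by 2 of the 18 and by 7 of the 16. These matches describe letters in a window, and since the regions are placed on the older build mm9, they could not be set against the position of a peak.

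Between 52% and 60% of the Wnt pathway genes had an assigned region in each list except ESC SMAD2/3. A region was assigned by the authors when it lay in a gene or within 1 kb of it. In ESCs, 8 genes (16%, 95% Clopper-Pearson interval 7.17 to 29.1) had SMAD2/3, against 7.32% of 21900 protein-coding genes. HEB was listed at 26 genes in ESCs (52%, 37.4 to 66.3) and at 27 in ESCs with SB (54%, 39.3 to 68.2), against 24.1% and 29.9% of coding genes. In endoderm, SMAD2/3 and HEB were each listed at 30 genes (60%, 45.2 to 73.6), against 23.1% and 24.9%. With SB, HEB was listed at 26 genes (52%), against 23.0%. The share of Wnt pathway genes was thus above that of all coding genes in each list, and for ESC SMAD2/3 the interval included the coding-gene share. Genes were not matched for length, which sets how many regions an assignment can collect. When every list was shortened to its 4111 highest regions by tag enrichment, SMAD2/3 was listed at 8 genes in ESCs and 14 in endoderm, and HEB at 8 in ESCs, 8 in endoderm, 11 in ESCs with SB and 12 in endoderm with SB, against 5.89% to 7.34% of coding genes.

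**Figure D1:**
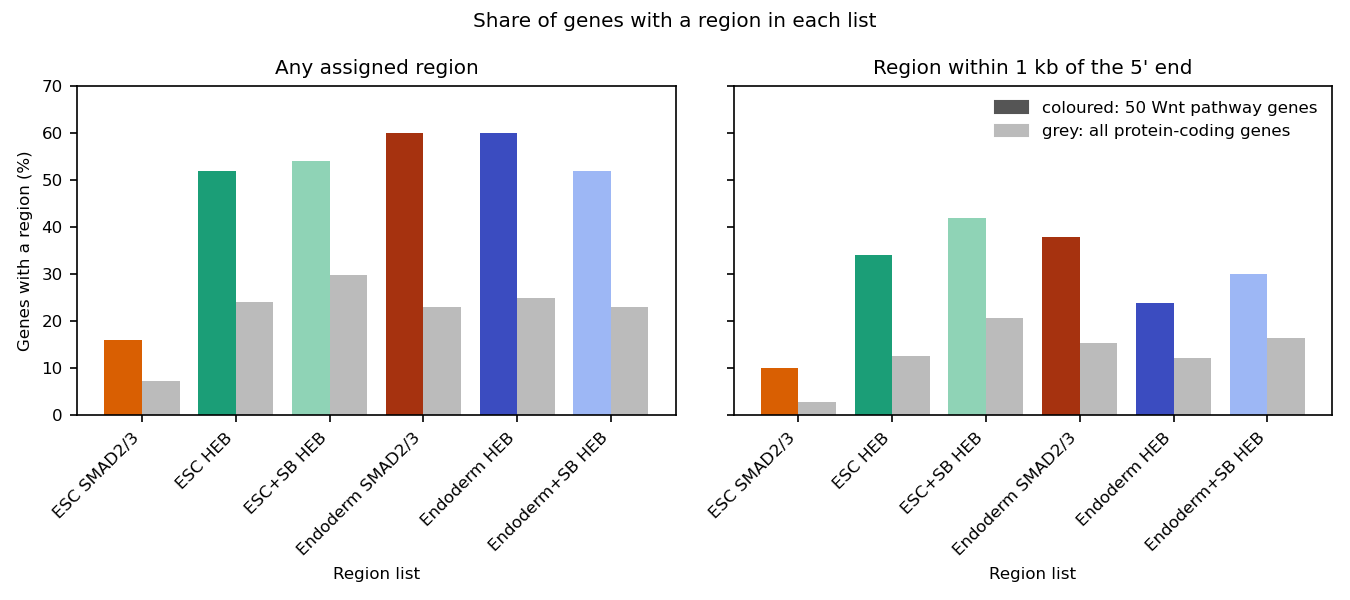
Percent of genes with a region in each list (1 ChIP library each), for any assigned region (left) and for a region within 1 kb of the 5′ end (right). Coloured bars are the 50 Wnt pathway genes and grey bars the 21900 protein-coding genes. The left coloured bars run from 16% (ESC SMAD2/3) to 60% (both endoderm lists without SB), each above its grey neighbour. On the right the Endoderm HEB bar (24%) is lower than the ESC+SB HEB bar (42%), as are their grey neighbours (12.3% and 20.7%).

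In the full lists the share of regions at the 5′ end was lowest for HEB in endoderm. A region within 1 kb of the 5′ end, here called promoter-proximal, was present for SMAD2/3 at 5 Wnt pathway genes in ESCs (2.76% of coding genes) and at 19 in endoderm (15.4%). For HEB the numbers were 17 in ESCs (12.6%), 21 in ESCs with SB (20.7%), 12 in endoderm (12.3%) and 15 in endoderm with SB (16.5%). Of the 79 Endoderm HEB regions at Wnt pathway genes, 13 were promoter-proximal (16.5%, 9.06 to 26.5), against 28.6% of all regions with a gene listed. In ESCs the share for HEB was 35.1% of 57 (22.9 to 48.9) and with SB 37.7% of 61, against 32.1% and 46.2%. It was 36.2% of 47 for HEB in endoderm with SB, against 55.0%, and 36.4% of 55 for SMAD2/3 in endoderm, against 49.4%. For SMAD2/3 in ESCs it was 45.5% of 11 (16.7 to 76.6), against 29.3%. The intervals of the share for HEB in ESCs and in endoderm overlap. In lists of equal length the order was another one: the share was lowest for HEB in endoderm with SB (5.56%, against 21.7%), then for HEB in endoderm (7.69%, against 9.78%) and in ESCs (9.09%, against 19.0%), each from a single promoter-proximal region. Genes with HEB in endoderm held 2.63 regions each, against 1.88 over all genes of that list.

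Except for ESC SMAD2/3, median heights at Wnt pathway genes were near those of all regions with a gene listed. Regions of 2 kb or more made up a larger share in 4 of the 6 lists. ChIP height is the authors' peak height of the ChIP signal on a scale whose normalisation is not stated. Its median over the 11 ESC SMAD2/3 regions at these genes was 45.1, against 32.8 over all regions of that list with a gene listed. For HEB it was 37.3 in ESCs and 40.8 with SB, against 36.5 and 38.6. In endoderm it was 39.4 for HEB, 33.9 for HEB with SB and 31.8 for SMAD2/3, against 37.7, 33.1 and 33.5. These wide regions made up 8.77% of those at Wnt pathway genes for ESC HEB, 13.1% for ESC+SB HEB and 7.27% for Endoderm SMAD2/3, against 2.95%, 3.40% and 0.930% of regions with a gene listed. In Endoderm+SB HEB the share was 2.13%, a single region, against 0.314%. It was lower at Wnt pathway genes for Endoderm HEB (1.27%, also a single region, against 1.44%), and none of the 11 ESC SMAD2/3 regions was as wide (0.281% with a gene listed). The wide regions of ESC HEB, ESC+SB HEB and Endoderm SMAD2/3 numbered 5, 8 and 4, among them those at or near the 5′ ends of Lef1, Wnt5a, Wnt10b and Wnt1. The smallest height was 28.0 in the ESC+SB HEB list and 25.0 in the 5 other lists, so a gene without a region can have binding below that height.

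**Figure D2:**
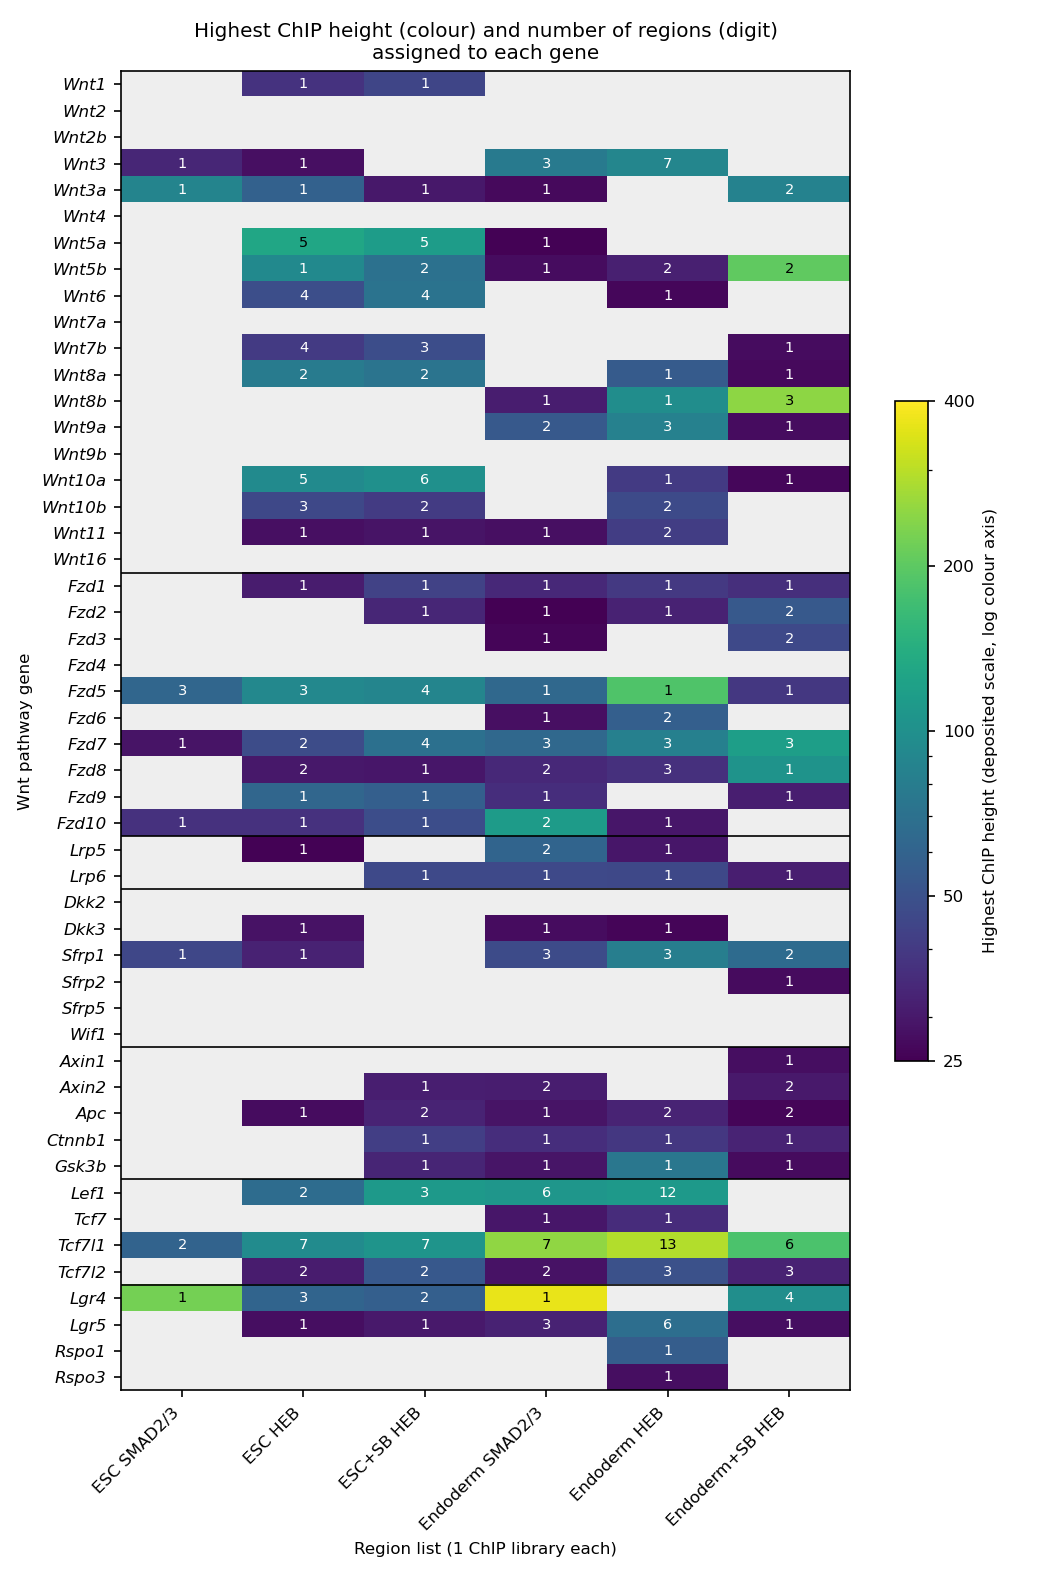
Highest ChIP height (colour, log scale, the authors' units) and number of assigned regions (digit) for each of the 50 genes (rows, grouped by role) in the 6 lists (columns, 1 ChIP library each). Grey cells have no assigned region. Tcf7l1 and Lef1 hold the most Endoderm HEB regions (13 and 12), and Lef1 and Wnt3 are grey in the Endoderm+SB HEB column.

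Of the 19 ligand genes, HEB was listed at 11 in ESCs (28 regions) and at 9 in endoderm (20 regions), with 7 in both (24.1%, 24.9% and 15.1% of coding genes). It was promoter-proximal at 8 ligand genes in ESCs and at 2 in endoderm (12.6% and 12.3% of coding genes). SMAD2/3 was listed at 2 ligand genes in ESCs, Wnt3 and Wnt3a, and at 7 in endoderm, only 1 of them (Wnt5a) at the 5′ end (7.32% and 23.1% of coding genes with any SMAD2/3 region). Wnt2, Wnt2b, Wnt4, Wnt7a, Wnt9b and Wnt16 had no region in any list.

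Wnt5a, a ligand known for beta-catenin-independent signalling, had 5 HEB sites in ESCs, and all 5 were also listed with SB. A site here is the union of regions that overlap across lists. The highest lay 7265 bp from the 5′ end (chromosome 14, 29325924 to 29326674, mm9), with a height of 129 in ESC HEB and 115 in ESC+SB HEB. The site over the 5′ end had heights of 38.3 and 54.6. Another, 3.16 kb from the 5′ end and also listed for Gm2670, was 3407 bp wide in ESC HEB and had heights of 85.0 and 69.1. No HEB region was listed at Wnt5a in endoderm with or without SB, and SMAD2/3 was listed at its 5′ end in endoderm with a height of 25.3.

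Wnt6 and Wnt10a, ligand genes that lie close together on chromosome 1, also had most of their HEB sites in ESCs. HEB was listed at 3 sites of Wnt6 in ESCs and 4 with SB, with heights of 34.3 to 48.7 and 30.02 to 71.9. In endoderm 1 Wnt6 site was left, at a height of 26.2. Wnt10a had 5 HEB sites in ESCs and 6 with SB. Its highest, 10.4 kb from the 5′ end (chromosome 1, 74849015 to 74850609), had heights of 94.6 in ESC HEB, 101 in ESC+SB HEB, 39.9 in Endoderm HEB and 26.2 in Endoderm+SB HEB. Neither gene had a SMAD2/3 region in any list.

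Wnt1, Wnt7b and Wnt8a also carried HEB at 5′ ends in ESCs. Wnt1, known for its role in the midbrain, had 1 wide region with heights of 37.5 in ESC HEB and 44.9 in ESC+SB HEB and none in endoderm. The 5′ end of Wnt8a, a ligand of the primitive streak, had heights of 79.6 and 72.7 in the 2 ESC lists and no region in endoderm. A second site, 4.90 kb from that 5′ end, was listed in all 4 HEB lists, with heights of 33.7 and 39.7 in ESCs without and with SB and 55.7 and 26.7 in endoderm. At the 5′ end of Wnt7b the heights were 36.8 in ESC HEB, 47.9 in ESC+SB HEB and 27.3 in Endoderm+SB HEB. An Endoderm HEB region of height 37.1 overlapped this site without being assigned to Wnt7b, the only such case among the 50 genes, so Wnt7b counts below as a gene without HEB in endoderm only by assignment.

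**Figure D3:**
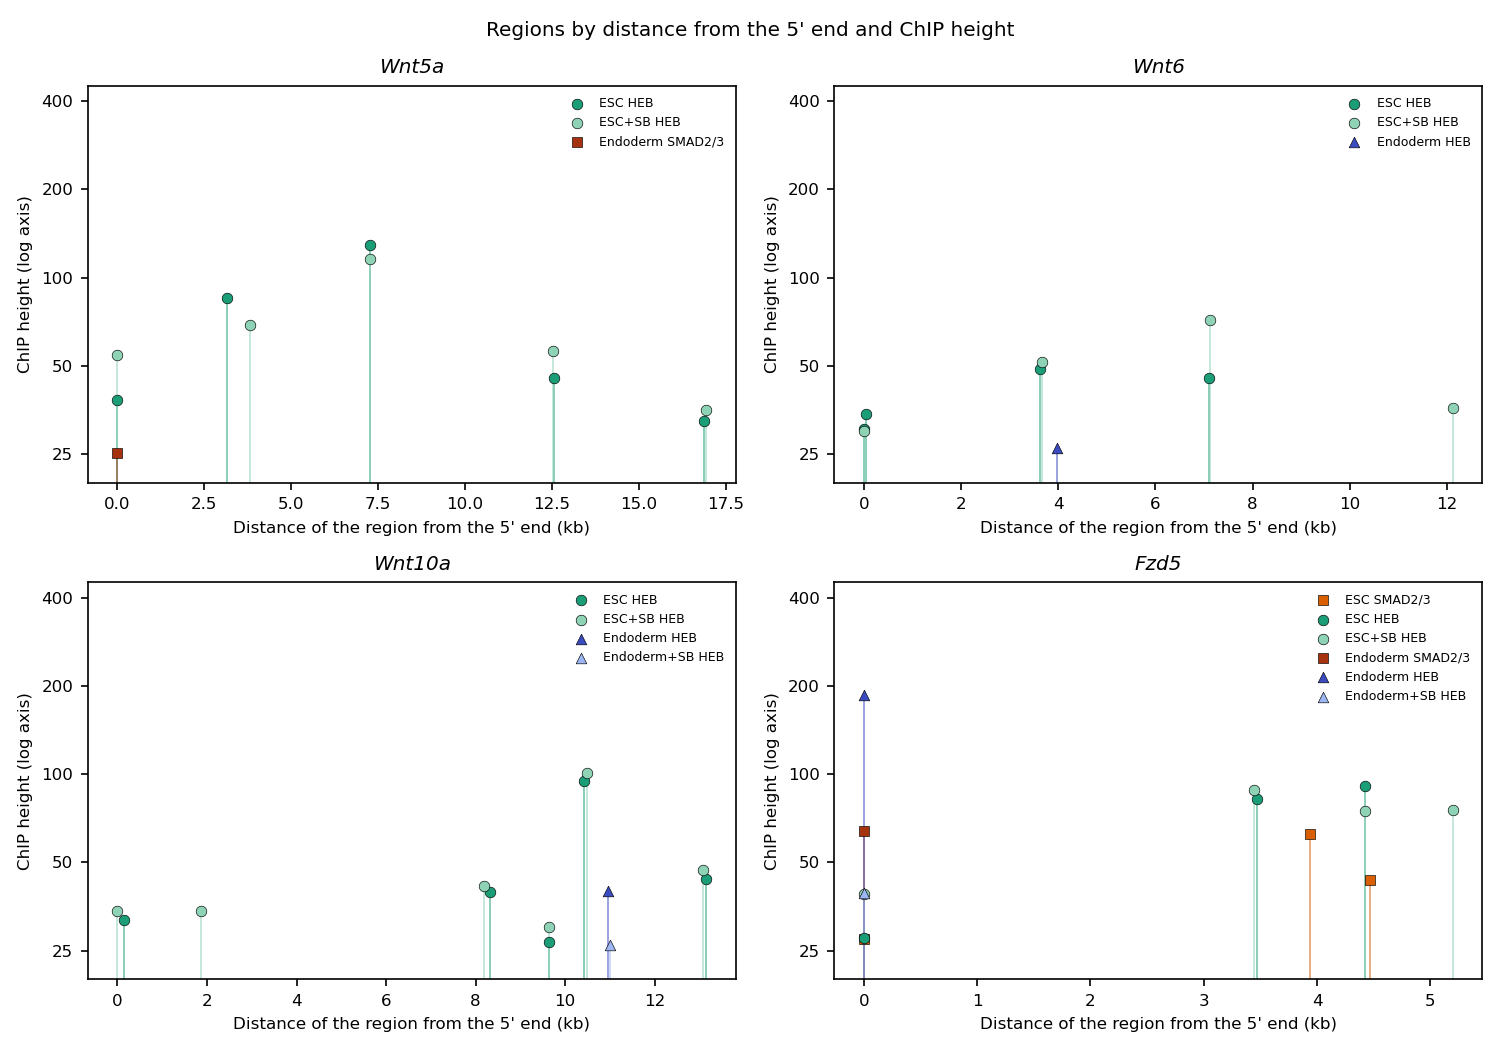
Regions at Wnt5a, Wnt6, Wnt10a and Fzd5 by distance from the 5′ end (horizontal, kb) and ChIP height (vertical, log axis, the authors' units). Each symbol is 1 region and each colour 1 library. At Wnt5a the ESC HEB and ESC+SB HEB symbols pair up at 5 positions with no endoderm HEB symbol, and at Fzd5 the endoderm symbols lie only at the 5′ end.

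Wnt3, a ligand of the primitive streak, had most of its HEB in endoderm, and none there with SB. In ESCs, 1 site in the gene was listed for SMAD2/3 (height 33.6) and for HEB (28.1), 34.3 kb from the 5′ end. In endoderm, HEB was listed at 6 sites (7 regions), with the highest, at 89.6, lying 3712 bp from the 5′ end (chromosome 11, 103639201 to 103639589). SMAD2/3 was listed at 3 of these 6 sites, with heights of 78.1, 66.6 and 32.8, where HEB had 54.3, 85.9 and 83.1. The Endoderm+SB HEB list had no region at Wnt3.

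Wnt3a, a canonical ligand, had 1 site 8.21 kb from the 5′ end at which heights were lower in endoderm for SMAD2/3. The site had 87.2 in ESC SMAD2/3, 59.1 in ESC HEB, 29.7 in ESC+SB HEB and 26.9 in Endoderm SMAD2/3, and was not listed for endoderm HEB. With SB in endoderm, HEB was listed at 2 other sites of Wnt3a, with heights of 36.4 and 85.3. Wnt3a was the only one of 8 shared SMAD2/3 sites at which the endoderm height was below that of ESCs, at a ratio of 0.308.

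Wnt8b and Wnt5b held the highest Endoderm+SB HEB regions among the ligands. At Wnt8b, known from the developing forebrain, a region starting 60 bp beyond the gene (chromosome 19, 44588823 to 44590104) held 1878 ChIP tags and 47 input tags, an enrichment of 40.0 and the highest of that list among Wnt pathway genes. Its heights were 250 in Endoderm+SB HEB, 97.3 in Endoderm HEB and 31.2 in Endoderm SMAD2/3, and it was not listed in ESCs. At Wnt5b, a relative of Wnt5a, a region 50.9 kb from the 5′ end (chromosome 6, 119441500 to 119443502) had a height of 202 in Endoderm+SB HEB and was in no other list. Another Wnt5b site, 94.6 kb from the 5′ end, had the highest ESC HEB enrichment among Wnt pathway genes, 27.7, and had heights of 93.1 in ESC HEB, 70.2 in ESC+SB HEB and 31.7 in Endoderm HEB.

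Of the other ligands, Wnt9a had HEB only in endoderm, with heights of 26.5, 84.8 and 54.1 at 3 sites and SMAD2/3 at the second of these (54.0). With SB, 1 of the 3 was listed, at 27.5. Wnt10b had HEB over its 5′ end at heights of 45.8 in ESC HEB, 40.4 in ESC+SB HEB and 46.4 in Endoderm HEB, with no region in Endoderm+SB HEB. Wnt11 had 1 HEB site near its 5′ end at 28.1, 28.9 and 26.8 in the same lists, and a site 1690 bp from the 5′ end at 41.4 for HEB and 28.0 for SMAD2/3 in endoderm. Neither Wnt10b nor Wnt11 was listed for HEB in endoderm with SB.

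At the Frizzled receptors, 9 of 13 SMAD2/3 regions in endoderm were promoter-proximal, against 49.4% of all Endoderm SMAD2/3 regions with a gene listed. Gene length, which limits how far from the 5′ end an assigned region can lie, was not matched. The 9 regions lay at 9 of the 10 genes, 1 each (15.4% of coding genes), all but Fzd4, which had no region in any list. The 4 others were at Fzd7 (heights of 54.0 and 63.7), Fzd8 (34.4) and Fzd10 (86.3). In ESCs SMAD2/3 was promoter-proximal at 2 Frizzled genes, Fzd5 and Fzd10 (2.76%). Endoderm heights at these 9 ends were mostly low, from 25.0 at Fzd2 to 37.2 at Fzd7, with higher values at Fzd5 (64.0) and Fzd10 (114). Endoderm HEB was promoter-proximal at 4 Frizzled genes, Fzd1, Fzd2, Fzd5 and Fzd7 (12.3%).

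Fzd5, a receptor whose promoter sequence is shown above, had a site over the 5′ end in all 6 lists. Its heights there were 27.5 in ESC SMAD2/3, 27.5 in ESC HEB, 39.0 in ESC+SB HEB, 64.0 in Endoderm SMAD2/3, 186 in Endoderm HEB and 39.3 in Endoderm+SB HEB. The Endoderm HEB value was 6.75 times that of ESC HEB, the highest ratio of 23 shared sites, and the ratio of Endoderm+SB HEB to Endoderm HEB, 0.211, was the lowest of 18. By contrast, 2 sites 3447 and 4420 bp from the 5′ end were listed in the 3 ESC lists only. At the nearer site the heights were 62.5 for SMAD2/3, 81.9 for HEB and 88.1 for HEB with SB, and the SMAD2/3 region (chromosome 1, 64780044 to 64780389, 195 ChIP tags, 11 input tags) had the highest enrichment of its list among Wnt pathway genes, 17.7.

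Fzd10 had its highest regions for SMAD2/3 in endoderm. The site over its 5′ end, which the authors also list for 5930412G12Rik, had heights of 37.0 in ESC SMAD2/3, 37.3 in ESC HEB, 47.9 in ESC+SB HEB and 114 in Endoderm SMAD2/3, with no endoderm HEB region. A second SMAD2/3 region 2000 bp from the 5′ end had an enrichment of 25.0 and a height of 86.3, and overlapped an Endoderm HEB region of height 29.6. In ESCs the SMAD2/3 and HEB regions of Fzd10 did not overlap, which held for no other gene with SMAD2/3 in ESCs.

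Fzd7, known as a Wnt receptor of ESCs, was in all 6 lists with 3 sites. At 5.10 kb from the 5′ end the heights were 28.8 in ESC SMAD2/3, 47.7 in ESC HEB, 69.5 in ESC+SB HEB, 63.7 in Endoderm SMAD2/3, 73.8 in Endoderm HEB and 63.0 in Endoderm+SB HEB. At 2.40 kb HEB reached 84.0 in endoderm and 118 with SB, against 28.1 in ESC+SB HEB. Fzd8 had 3 sites. At 3.03 kb from the 5′ end the heights were 27.9 in ESC HEB, 34.4 in Endoderm SMAD2/3, 26.5 in Endoderm HEB and 104 in Endoderm+SB HEB. The ratio of Endoderm+SB HEB to Endoderm HEB there, 3.93, was the highest of the 18 shared sites. At 1.79 kb HEB had 29.9 in ESCs, 29.6 in ESCs with SB and 36.8 in endoderm, and was not listed in Endoderm+SB HEB. Fzd1 had only its 5′ site, between 30.9 and 43.0 in the 5 lists that hold it. Fzd9 had HEB 1748 bp from the 5′ end in ESCs (62.7, and 58.1 with SB), and at the 5′ end SMAD2/3 in endoderm (36.0) and HEB with SB (31.7). Fzd6 had HEB in endoderm at 58.1 and 39.4, apart from its SMAD2/3 region over the 5′ end (28.1), and none with SB.

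The co-receptor Lrp6 carried SMAD2/3 and HEB over its 5′ end in endoderm. The heights were 45.9 for SMAD2/3, with an enrichment of 17.75, then 45.6 for HEB and 31.4 for HEB with SB, and HEB was also listed there in ESC+SB HEB (45.9) but not in ESC HEB. Lrp5 had a SMAD2/3 region of height 61.0 and enrichment 22.6 in endoderm, 43560 bp from the 5′ end, over an Endoderm HEB region of height 29.4. With SB no HEB region was listed at Lrp5.

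Of the 6 secreted antagonists, Dkk2, Sfrp5 and Wif1 had no region. Sfrp1, which binds Wnt proteins outside the cell, held most regions of the class, at 7 sites. In ESCs a site 691 bp from its 5′ end had heights of 45.1 for SMAD2/3 and 32.4 for HEB. In endoderm that site was absent, and HEB was listed at 3 others, with heights of 82.2, 74.8 and 40.3 at 1.34, 23.9 and 31.8 kb. SMAD2/3 overlapped the latter pair, at 47.0 and 38.2. The 2 Endoderm+SB HEB regions, at 66.2 and 25.2, lay at neither of these sites. Dkk3 had 1 low region each in ESC HEB (28.5), Endoderm SMAD2/3 (27.4) and Endoderm HEB (25.9), at 3 different places, and Sfrp2 had 1 in Endoderm+SB HEB (27.0).

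Genes of beta-catenin and the destruction complex had mostly low regions over their 5′ ends. Ctnnb1, the beta-catenin gene, had heights of 41.7 in ESC+SB HEB, 35.9 in Endoderm SMAD2/3, 39.2 in Endoderm HEB and 33.0 in Endoderm+SB HEB over its 5′ end. Axin2, a known feedback target of the pathway, had 31.4 in ESC+SB HEB, 27.8 in Endoderm SMAD2/3 and 30.3 in Endoderm+SB HEB. Neither was listed in the untreated ESC lists. Axin1, the scaffold of the complex, had 1 region, of 27.6 in Endoderm+SB HEB, and Apc had none above 33.1. Gsk3b, which encodes a kinase of the complex, had the exception: an Endoderm HEB region inside the gene, 46444 bp from the 5′ end (chromosome 16, 38135531 to 38135964), with 307 ChIP and 11 input tags, an enrichment of 27.9 and a height of 74.9. It was in no other list.

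The TCF/LEF factors, through which beta-catenin acts on DNA, held 29 of the 79 Endoderm HEB regions and 16 of the 55 Endoderm SMAD2/3 regions at Wnt pathway genes. In ESCs they held 11 of 57 HEB regions. With SB in endoderm they held 9 of 47, all of them at Tcf7l1 and Tcf7l2. Longer genes can collect more regions, and these counts were not set against gene length. Sites of Tcf7l1 lay up to 147 kb from the 5′ end and those of Lef1 up to 92.5 kb.

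Tcf7l1 had 22 sites, more than any other of the 50 genes. The site with the highest HEB height in endoderm, 289, lay 146909 bp from the 5′ end (chromosome 6, 72591420 to 72592041) with 1010 ChIP and 22 input tags, an enrichment of 45.9 and the highest of that list among Wnt pathway genes. SMAD2/3 had a height of 28.1 there in endoderm, and the site was in no ESC list and not in Endoderm+SB HEB. A second site, 110 kb from the 5′ end (chromosome 6, 72627090 to 72628978), was in all 6 lists, with heights of 45.2 in ESC SMAD2/3, 47.0 in ESC HEB, 40.8 in ESC+SB HEB, 252 in Endoderm SMAD2/3, 133 in Endoderm HEB and 181 in Endoderm+SB HEB. All 3 values there from the endoderm protocol, with SB included, were above all 3 ESC values. The site over the 5′ end was also in all 6 lists, at 60.5, 94.7, 105, 83.3, 81.2 and 54.5 in the same order, and showed no such separation. Together with the 5′ site of Fzd5 and the 5.10 kb site of Fzd7, these were the 4 sites present in all 6 lists.

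Lef1 had 11 HEB sites in endoderm (12 regions) and none with SB. The heights of these regions ran from 25.5 to 111. The highest, 111, lay 45867 bp from the 5′ end, and a region 8207 bp from it (chromosome 3, 130821596 to 130821989) had the enrichment of 30.8 that ranked second among Wnt pathway genes in this list. SMAD2/3 was listed in endoderm with 6 regions, the highest of them, at 108, overlapping an Endoderm HEB region of height 102 at 33.5 kb. In ESCs the main HEB region was a wide one over the 5′ end, 2733 bp wide with a height of 66.6, and 3468 bp wide with a height of 112 with SB. The 5′ end in endoderm had HEB heights of 29.97 and 38.2.

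Tcf7 had 1 site near its 5′ end, listed in endoderm for HEB (35.5) and SMAD2/3 (29.5) and absent with SB. Tcf7l2 had a HEB site 2.07 kb from a listed 5′ end in all 4 HEB lists, at 31.0 in ESC HEB, 53.5 in ESC+SB HEB, 49.9 in Endoderm HEB and 32.7 in Endoderm+SB HEB, with SMAD2/3 at 26.2 in endoderm.

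**Figure D4:**
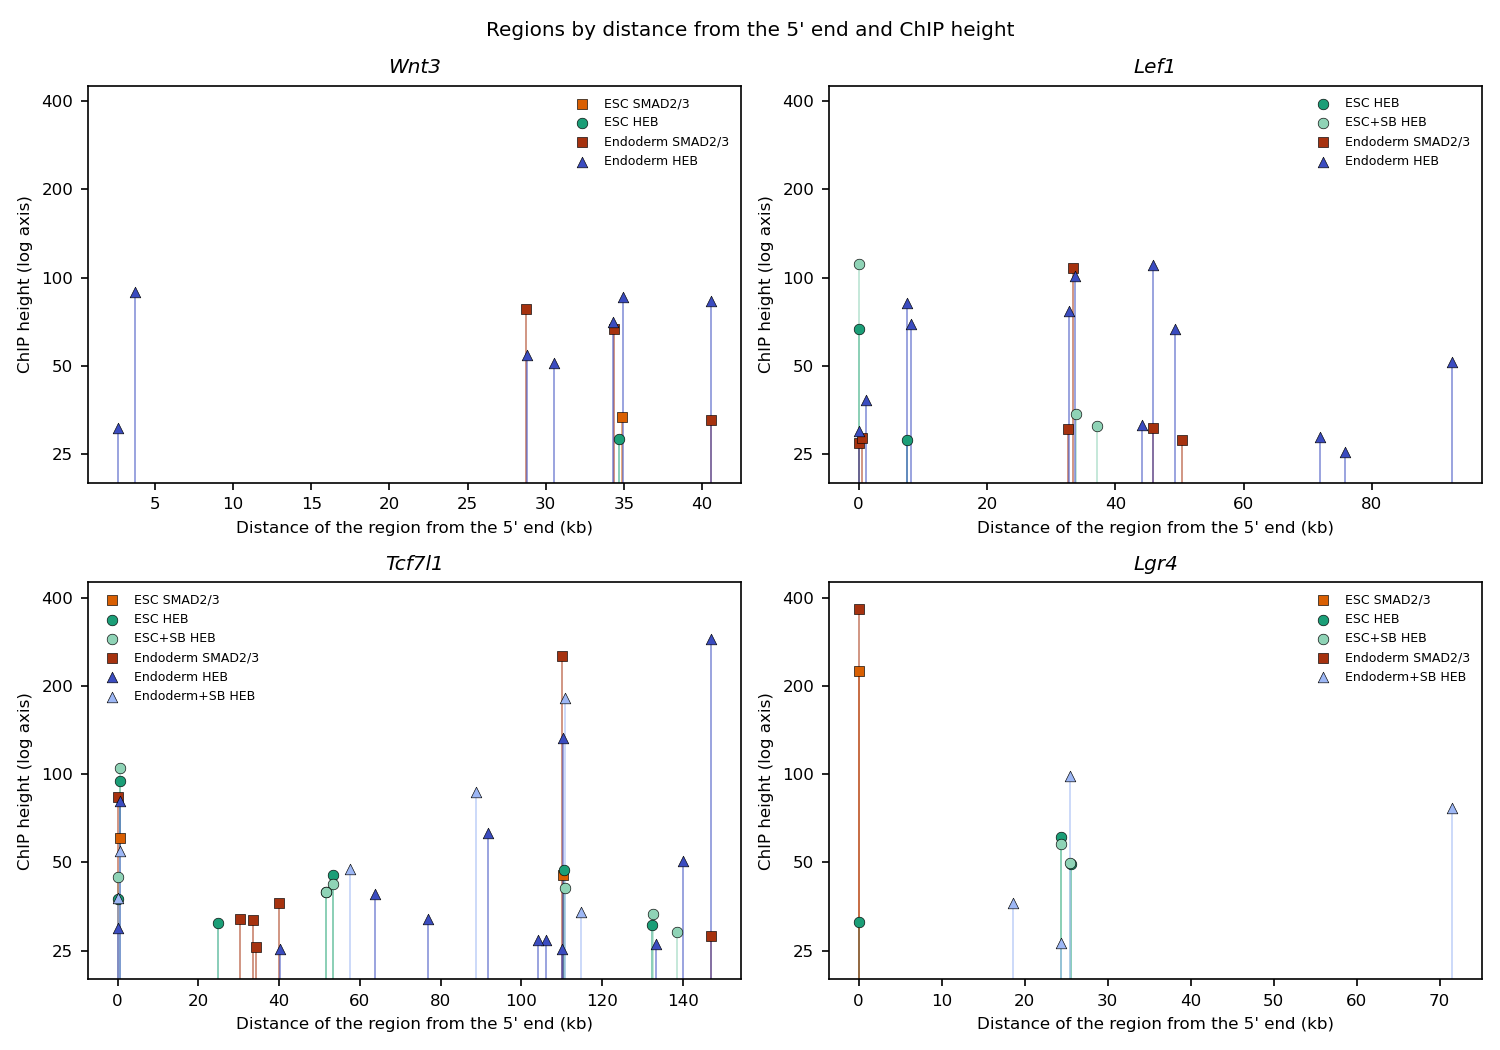
Regions at Wnt3, Lef1, Tcf7l1 and Lgr4 by distance from the 5′ end (horizontal, kb) and ChIP height (vertical, log axis, the authors' units). Each symbol is 1 region and each colour 1 library. Wnt3 and Lef1 have no Endoderm+SB HEB symbol, Lgr4 has 4 of these and no Endoderm HEB symbol, and the Endoderm SMAD2/3 symbol at the Lgr4 5′ end (364) is the highest in the plot.

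In the R-spondin branch, Lgr4 and Lgr5 encode receptors for R-spondins. The 5′ end of Lgr4 had the highest SMAD2/3 regions of the 50 genes, with 647 ChIP and 39 input tags and a height of 225 in ESCs (chromosome 2, 109757296 to 109758050), and a height of 364 in endoderm (109756981 to 109758599), ranked 32 and 54 by height in their whole lists. HEB at this site was low in ESCs (31.4) and not listed in the 3 other HEB lists. Farther into the gene, HEB was listed at 24.4 kb with heights of 60.8 in ESC HEB, 57.9 in ESC+SB HEB and 26.5 in Endoderm+SB HEB, and at 25.5 kb with 49.2, 49.6 and 98.5. None of these was in the Endoderm HEB list. The Endoderm+SB HEB region at 25.5 kb had an enrichment of 33.9, and a further one at 71.5 kb had a height of 76.9.

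Lgr5, a marker of stem cells in adult epithelia, had 6 HEB regions in endoderm, with heights of 25.9 to 68.4. SMAD2/3 overlapped 3 of them in endoderm. The 1 Endoderm+SB HEB region (27.7) lay at a separate site. Of the R-spondins, Rspo1 had 1 Endoderm HEB region of height 56.8 and Rspo3 had 1 of 27.9, and neither was in another list.

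The first comparison asked where SMAD2/3 and HEB lie together in the same cells. In ESCs all 8 genes with SMAD2/3 also had HEB (6.25% of coding genes had both, and 1.07% SMAD2/3 alone), and 10 of 11 SMAD2/3 regions overlapped a HEB region (90.9%, 58.7 to 99.8), against 81.0% of SMAD2/3 regions with any gene listed. The genes with overlapping regions were Wnt3, Wnt3a, Fzd5, Fzd7, Sfrp1, Tcf7l1 and Lgr4. A further 18 genes had HEB alone (17.9%). In endoderm 24 genes had both factors (15.0%), 6 had SMAD2/3 alone (8.09%) and 6 had HEB alone (9.85%). Of 55 SMAD2/3 regions, 34 overlapped HEB (61.8%, 47.7 to 74.6), against 55.9%. Overlapping regions were found at 19 genes: Wnt3, Wnt8b, Wnt9a, Wnt11, Fzd1, Fzd2, Fzd5, Fzd7, Fzd8, Fzd10, Lrp5, Lrp6, Sfrp1, Ctnnb1, Lef1, Tcf7, Tcf7l1, Tcf7l2 and Lgr5. Those with SMAD2/3 alone were Wnt3a, Wnt5a, Fzd3, Fzd9, Axin2 and Lgr4, and those with HEB alone were Wnt6, Wnt8a, Wnt10a, Wnt10b, Rspo1 and Rspo3. At Wnt5b, Fzd6, Dkk3, Apc and Gsk3b both factors were listed in endoderm at places that did not overlap. The intervals of both overlap shares include the share over all regions with a gene listed. In lists of equal length the overlap was 27.3% in ESCs and 27.8% in endoderm, against 27.2% and 27.7% of regions with a gene listed. The shortened HEB lists hold fewer regions, and why the shares changed was not tested.

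The second comparison set ESCs beside endoderm. HEB was assigned in both at 20 genes (15.1% of coding genes), in ESCs alone at 6 (9.0%), namely Wnt1, Wnt3a, Wnt5a, Wnt7b, Fzd9 and Lgr4, and in endoderm alone at 10 (9.74%), namely Wnt8b, Wnt9a, Fzd2, Fzd6, Lrp6, Ctnnb1, Gsk3b, Tcf7, Rspo1 and Rspo3. Counted by region, of 57 ESC HEB regions 24 overlapped an Endoderm HEB region (42.1%, 29.1 to 55.9, against 34.6% of regions with a gene listed), and of 79 Endoderm HEB regions 24 overlapped an ESC HEB region (30.4%, 20.5 to 41.8, against 32.8%). Over all 152 sites, 22 were in both ESC HEB lists and in neither endoderm HEB list, and 44, of which 1 was promoter-proximal, were in Endoderm HEB and no other HEB list. These were 14.5% and 28.9% of the sites, against 17.7% and 22.4% of 22459 sites built in the same way from all regions with a gene listed. Of the sites in Endoderm HEB and no other HEB list, 2.27% were promoter-proximal at Wnt pathway genes and 10.4% with any gene listed. SMAD2/3 was listed in endoderm at all 8 genes that had it in ESCs (5.27% of coding genes) and at 22 further genes (17.8%), and no gene had it in ESCs alone (2.05%). Of the 11 ESC SMAD2/3 regions 8 overlapped an endoderm region (72.7%, 39.0 to 94.0, against 44.2%), and the interval includes the share over all regions with a gene listed. With 50% reciprocal overlap 3 of the 11 did (27.3%), below the 33.4% of regions with a gene listed. At the 8 sites that overlapped by 1 bp or more, the endoderm height was higher at 7. The median ratio was 2.10, against 1.33 over shared regions with a gene listed. The ratio was highest at the 110 kb site of Tcf7l1, at 5.57.

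The third comparison asked how the HEB lists differ with SB, which blocks the receptors upstream of SMAD2/3. In ESCs HEB was listed at 22 genes without and with SB (21.1% of coding genes), at Wnt3, Lrp5, Dkk3 and Sfrp1 without SB alone (3.05%), and at Fzd2, Lrp6, Axin2, Ctnnb1 and Gsk3b with SB alone (8.81%). Of 57 regions 46 were also listed with SB (80.7%, 68.1 to 90.0, against 77.4%), and of 61 regions with SB 46 were also listed without it (75.4%, 62.7 to 85.5, against 70.9%). The 11 sites not listed with SB were low, with heights of 25.3 to 39.3, and 6 were below 30. The median ratio of heights with SB to without at 42 shared sites was 1.08, against 1.11 over regions with a gene listed.

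In endoderm the lists with and without SB had fewer sites in common. HEB was listed in both at 18 genes (14.2%), without SB alone at 12 (10.6%) and with SB alone at 8 (8.83%). The 12 were Wnt3, Wnt6, Wnt10b, Wnt11, Fzd6, Fzd10, Lrp5, Dkk3, Lef1, Tcf7, Rspo1 and Rspo3, and the 8 were Wnt3a, Wnt7b, Fzd3, Fzd9, Sfrp2, Axin1, Axin2 and Lgr4. Of 79 Endoderm HEB regions 19 were also listed with SB (24.1%, 15.1 to 35.0), against 29.8% of regions with a gene listed, a share within this interval. Promoter-proximal regions were listed with SB at 8 of 13 (61.5%) and the others at 11 of 66 (16.7%), against 56.3% and 19.2% over regions with a gene listed. The 57 sites not listed with SB had heights of 25.3 to 289 with a median of 38.2, and 16 were below 30. Of 47 Endoderm+SB HEB regions 19 were also listed without SB (40.4%, 26.4 to 55.7, against 47.0%), and 28 sites were listed with SB alone, with heights of 25.2 to 202. The Endoderm+SB HEB list is the shorter, with 10147 regions against 18981, and in lists of equal length 1 of 13 Endoderm HEB regions was also listed with SB (7.69%, against 19.0%).

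SMAD2/3 in the same endoderm cells was compared at these regions. Of 38 Endoderm HEB regions that overlapped SMAD2/3, 15 were also listed with SB (39.5%, 24.0 to 56.6), and of 41 without SMAD2/3, 4 were (9.76%, 2.72 to 23.1). Over all regions with a gene listed the shares were 49.5% and 17.7%. Location was not separated in these shares. Of 75 Endoderm HEB sites 13 were promoter-proximal, and 10 of these were among the 33 sites that also held SMAD2/3. Of the sites with both factors, 7 of the 13 also listed with SB were promoter-proximal, and 3 of the 20 not listed with SB. A difference by SMAD2/3 at the same location was not tested. In ESCs 7 of 10 regions with SMAD2/3 (70%, 34.8 to 93.3) and 39 of 47 without (83.0%, 69.2 to 92.4) were listed with SB, against 89.6% and 74.6%. In both kinds of cell the intervals at Wnt pathway genes include the shares over all regions with a gene listed. SMAD2/3 was not profiled with SB, so its own occupancy under SB is not known.

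**Figure D5:**
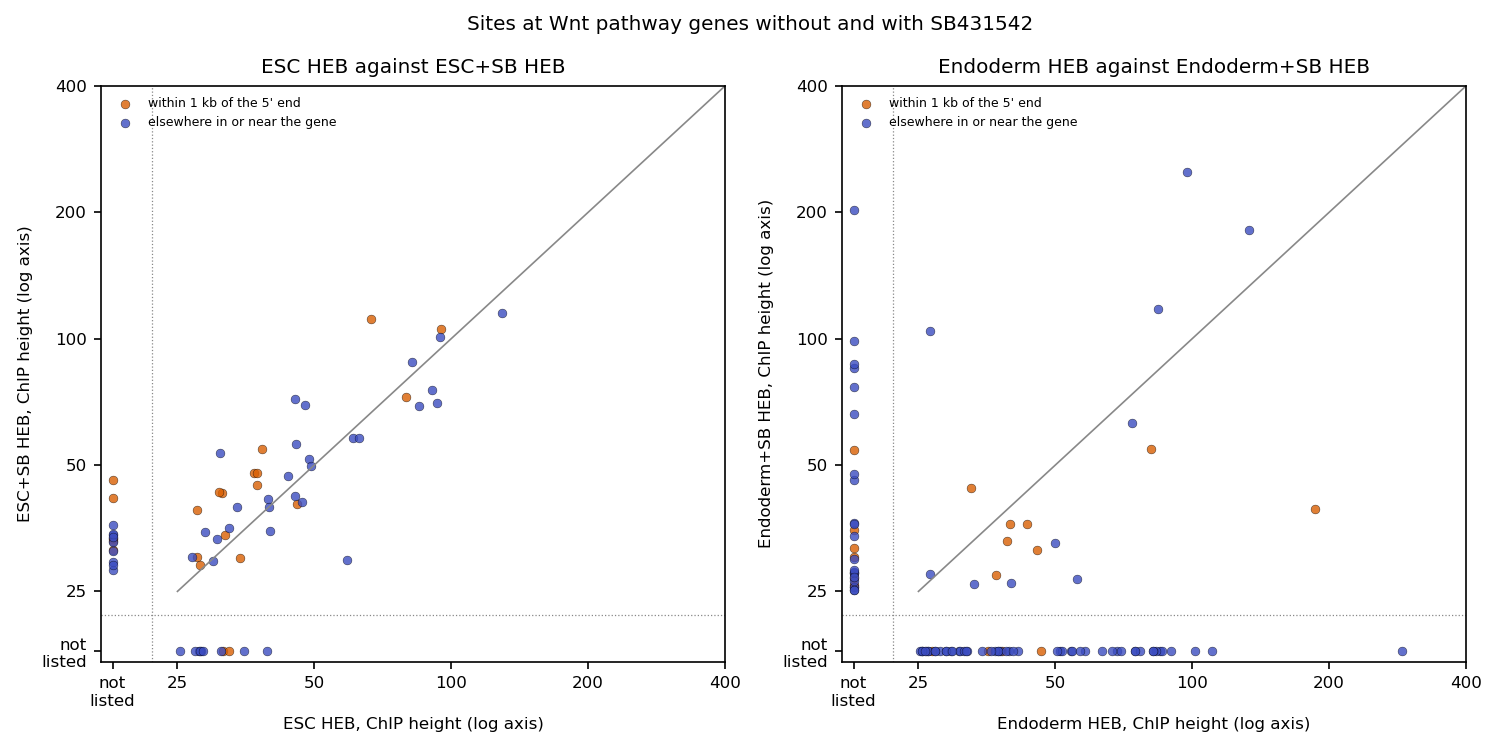
ChIP height of each site at Wnt pathway genes without SB (horizontal, log axis) and with SB (vertical, log axis) for ESC HEB (left) and Endoderm HEB (right), in the authors' units. Orange points are within 1 kb of the 5′ end, blue points elsewhere, the line marks equal heights, and sites in only 1 list stand in the margins. In ESCs the 42 shared sites follow the line and the 11 sites absent with SB lie below 40, while in endoderm 57 sites are absent with SB and only 18 are shared.

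A second list of 40 other genes of the pathway held modulators, Dishevelled and TLE genes, ubiquitin ligases and known targets. HEB was listed at 24 of the 40 in ESCs (60%, against 24.1% of coding genes) and 25 in ESCs with SB (62.5%, against 29.9%). In endoderm it was listed at 24 (60%, against 24.9%), and with SB at 18 (45%, against 23.0%). SMAD2/3 was listed at 2 in ESCs, Znrf3 and Cdx1 (5%, against 7.32%), and at 19 in endoderm (47.5%, against 23.1%). The share was thus below that of coding genes for ESC SMAD2/3 and above it in the other lists. Dvl3, Pygo1, Tle2, Nkd2 and Sost had no region in any list. Znrf3 encodes a ligase that removes Frizzled receptors from the cell surface and is restrained by R-spondins, and Cdx1 is a known Wnt target.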

How the data were processed

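ChIP-seq of HEB and SMAD2/3 was analysed from 6 lists of enriched regions, 1 for each ChIP library of CGR8 ESCs or ESC-derived endoderm. Of the 4 input libraries only the input tags printed in these lists were used. Genome build mm9 and CASAVA 1.8.2 are named in the submitters' processing notes. Neither the aligner nor the peak caller is given in the sources used here, and the same holds for peak-calling settings and annotation.

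Per the file headers, each deposited region carries a count of ChIP tags and a count of input tags, which are whole numbers. The authors' ratio of these tags is called tag enrichment here. In some regions with few input tags it is lower than the quotient of the printed counts. The deposited signal is the ChIP height of the region, with no scaling stated in the file headers. A deposited column headed −log10 q-value holds a score that is not on its named scale and was not used. Coordinates are printed as deposited, since no source used here says whether the first base is 0 or 1.

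A gene was counted for a list when the authors assigned it a region, and counts of regions take each region once even where several genes share it. Promoter-proximal means within 1 kb of the listed 5′ end. Regions sharing 1 bp or more were taken to overlap, and regions that overlap across lists were merged into sites, whose height in a list is that of its highest region. The background was 21900 protein-coding genes of a GRCm38.p6 table, used for names only, to which 10640 of 10730 listed symbols (99.2%) matched. Shares have exact Clopper-Pearson 95% intervals, which cover counting error only. Median ChIP tags per region were 155 to 184 in the 6 lists. With 1 library per group no test across samples was made.

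All 50 genes were accounted for by role. The genes named were the 3 with the highest tag enrichment in each list, those whose assignment differs between the lists of a comparison, and those with overlapping SMAD2/3 and HEB regions. Other values named at these genes were chosen after they were seen. Promoters were shown for up to 6 genes with SMAD2/3 at the promoter, highest enrichment first, where RefSeq has an entry. The members, the second gene list and the comparisons were chosen with earlier results of these data known. Alternatives were lists of equal length, the upper 50% of each list, 1 smallest height, promoter-proximal regions only, and 50% reciprocal overlap. Overlap counts were tested on simulated regions and against bedtools 2.31.1. Python 3.11.15, pandas 2.3.3, numpy 2.4.6 and scipy 1.17.1 were used.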

Additional observations from a re-analysis of the deposited data

Results flagged for a closer look

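In the full lists, the difference in the number of HEB regions at Wnt pathway genes with SB went in opposite directions in the 2 kinds of cell. In ESCs it was higher by 4 with SB (61 against 57 regions), and in endoderm the difference was -32 (47 against 79). The difference between the cells was not tested, since each group holds 1 library. The whole lists held 16769 regions with SB against 17222 without in ESCs, and 10147 against 18981 in endoderm. In lists of equal length the number was higher with SB in both kinds of cell, by 7 in ESCs (18 against 11) and by 5 in endoderm (18 against 13), so the opposite direction was not seen there.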

How the results depend on the processing

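In lists of equal length 14 genes had a region for SMAD2/3 in endoderm (7.34% of coding genes). For HEB the genes numbered 8 in ESCs (6.33%), 11 in ESCs with SB (6.56%), 8 in endoderm (5.89%) and 12 in endoderm with SB (6.19%). The promoter-proximal share for HEB was 9.09% in ESCs, 22.2% in ESCs with SB, 7.69% in endoderm and 5.56% in endoderm with SB. Over regions with a gene listed it was 19.0%, 24.6%, 9.78% and 21.7%. Overlap was 27.3% of ESC SMAD2/3 with ESC HEB, against 27.2% of regions with a gene listed. For Endoderm SMAD2/3 it was 27.8% with Endoderm HEB (against 27.7%) and with ESC SMAD2/3 (against 19.5%). Overlap was 9.09% of ESC HEB with Endoderm HEB (against 16.1%) and 7.69% in reverse (against 16.9%). It was 7.69% of Endoderm HEB with Endoderm+SB HEB (against 19.0%) and 5.56% in reverse (against 17.9%). For ESC HEB with ESC+SB HEB it was 90.9% (against 64.3%) and 61.1% in reverse (against 59.8%). In the upper 50% of each list, 15 genes had a region for each of ESC HEB, Endoderm HEB and Endoderm+SB HEB. The shares of coding genes were 11.6%, 11.6% and 8.07%. The promoter-proximal share for HEB was 7.5% in endoderm and 16% with SB, against 11.6% and 27.1% of regions with a gene listed. Overlaps there were 57.1% of ESC SMAD2/3 with ESC HEB (against 68.2%) and 46.7% of Endoderm SMAD2/3 with Endoderm HEB (against 41.2%). Between ESC HEB and Endoderm HEB the share was 11.1% (against 21.5%), and 7.5% in reverse (against 20.6%). Endoderm HEB also overlapped Endoderm+SB HEB at 7.5% (against 16.1%), and in reverse the share was 12% (against 27.9%). For ESC+SB HEB with ESC HEB it was 60.6% (against 66.8%). With 1 smallest height of 28.0 for all lists, Endoderm+SB HEB had 17 genes (17.8% of coding genes). Counting promoter-proximal regions only gave 5 genes for SMAD2/3 in ESCs (2.76% of coding genes) and 19 in endoderm (15.4%). For HEB it gave 17 in ESCs (12.6%), 12 in endoderm (12.3%) and 15 in endoderm with SB (16.5%). With 50% reciprocal overlap the share of ESC SMAD2/3 with Endoderm SMAD2/3 was 27.3%, against 33.4% of regions with a gene listed. In reverse it was 5.45%, also below the share of regions with a gene listed. For ESC HEB with ESC+SB HEB it was 66.7% (against 69.0%) and 62.3% in reverse (against 64.0%). With overlap of 1 bp or more, each of these shares was above that of regions with a gene listed. The other values moved by less than 1.5 times (counts) or stayed within their binomial interval (shares). Each of these alternatives but the reciprocal overlap leaves fewer regions in most or all lists. Equal length leaves the ESC SMAD2/3 list unchanged, and the smallest height of 28.0 leaves the ESC+SB HEB list unchanged. No paired analysis was possible because each group holds 1 library and no test was made. Regions under the smallest listed height are not seen, which limits any statement that a gene has no region.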

Other observations

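Among the 40 other pathway genes, the highest regions were in the Endoderm+SB HEB list, followed by Endoderm HEB regions. The genes in this paragraph were chosen after their values were seen. Tle1, which encodes a co-repressor that TCF factors recruit, had 2 Endoderm+SB HEB regions with heights of 180 and 165 and enrichments of 44.5 and 41.6, at 40332 and 32061 bp from its 5′ end. Wls, needed for Wnt secretion, had an Endoderm+SB HEB region of height 152, and Tle4 had an Endoderm HEB region of height 150. Frzb, a secreted antagonist, had a HEB region near its 5′ end with a height of 113 in endoderm and 161 with SB. Ror1 and Ror2, receptors for Wnt5a, had Endoderm HEB regions with heights of 137 and 97.6.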
